A study of Mus musculus with 59 samples.

Results

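Repeated injection of cocaine in the home cage was compared with repeated injection of saline by RNA sequencing of the ventral tegmental area of male mice. The chronic cocaine group and the chronic saline group held 6 libraries each, 12 of the 59 libraries of a series that also covered acute injection, conditioning and self-administration of cocaine. The genes described are those with a mean of at least 1 FPKM (fragments scaled to transcript length and library size) over these 12 libraries, which were 13190 of the 24346 gene symbols in the table. Both groups received repeated injections in the home cage, so they differ by label only in what was injected, and every library was made from total RNA of the whole dissected region. The labels give neither dose, number of injections, strain or age nor how long after the last injection tissue was taken. Nothing in them ties each library to an animal of its own, and the p-values therefore reflect spread among libraries that may be technical.

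The ventral tegmental area is the midbrain region whose dopamine neurons project to the striatum and cortex, and it also holds GABA and glutamate neurons, glia and vessels. Cocaine blocks the dopamine transporter and is also known to activate the hormonal stress axis, which ends in the release of corticosterone in mice. Corticosterone enters cells and binds the glucocorticoid receptor, which moves to the nucleus, binds a palindromic DNA element and raises transcription of genes that restrain mTOR, inflammation and glucose use. Metallothioneins, small proteins that bind zinc and copper, are induced by the same receptor and by metal ions through a separate element.

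Promoter sequences of 3 of the genes named below are given first, with matches to known response elements marked. They are RefSeq windows of 250 bases before to 50 bases after a transcript start (GRCm38.p6), printed 5′ to 3′ on the plus strand, on which all 3 genes lie. Sgk1 encodes a kinase of salt and glucose transport and has 6 such windows. The window of Sgk1 shown lies at chr10:21993640-21993939, and its capitals mark the full palindromic glucocorticoid response element. The window of Mt2 lies at chr8:94172368-94172667 and that of Mt1 at chr8:94178839-94179138, and their capitals mark matches to the core of the metal response element on either strand.
Sgk1: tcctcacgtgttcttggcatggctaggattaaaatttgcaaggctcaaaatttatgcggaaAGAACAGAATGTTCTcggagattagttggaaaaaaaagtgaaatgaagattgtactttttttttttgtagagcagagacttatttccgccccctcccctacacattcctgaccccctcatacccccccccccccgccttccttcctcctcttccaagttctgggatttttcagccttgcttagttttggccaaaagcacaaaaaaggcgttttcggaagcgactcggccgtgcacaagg
Mt2: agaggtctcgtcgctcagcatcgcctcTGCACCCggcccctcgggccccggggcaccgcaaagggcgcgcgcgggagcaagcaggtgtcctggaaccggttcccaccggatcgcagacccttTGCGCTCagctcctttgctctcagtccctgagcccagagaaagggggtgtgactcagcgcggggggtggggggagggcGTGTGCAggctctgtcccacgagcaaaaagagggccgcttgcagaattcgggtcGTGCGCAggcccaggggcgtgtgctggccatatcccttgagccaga
Mt1: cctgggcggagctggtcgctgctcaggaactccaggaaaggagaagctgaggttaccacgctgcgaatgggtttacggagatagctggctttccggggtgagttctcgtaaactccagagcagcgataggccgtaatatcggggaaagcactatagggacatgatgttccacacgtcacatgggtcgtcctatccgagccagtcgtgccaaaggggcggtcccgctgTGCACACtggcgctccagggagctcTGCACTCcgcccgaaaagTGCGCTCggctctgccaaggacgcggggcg
The full element, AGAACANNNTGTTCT, was searched on both strands and was present in 3 of 32851 promoter windows of all genes (0.00913%), 1 of which was the Sgk1 window printed. That window was chosen for printing after the match was seen. The single motif AGAACA was found in 19% of all windows and in 6 of 42 windows (14.3%) belonging to 31 of the 36 listed glucocorticoid-induced genes, and the full element contains it. The metal response core, TGCACNC or TGCGCNC, occurred 4 times in the Mt2 window, 3 times in the Mt1 window and 1 time in that of Mt3, while 25.7% of all windows held at least 1 and 1.97% held at least 3. The 6 windows with AGAACA belonged to 4 genes, Sgk1, Sult1a1, Tsc22d3 and Bcl6. The windows of Arrdc2, Ddit4, Plin4, Cdkn1a, Mt1 and Mt2 held 0 matches to it. A match describes the letters in a window and says nothing of whether a factor bound there.

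Sums of FPKM lay between 436300 and 455560 in cocaine libraries and between 418179 and 436982 in saline libraries. Only cocaine library 2 lay within the saline range, the other cocaine libraries being above every saline library. The main fit did not rescale the values for this. No pair of libraries held identical values. Symbols listed at 0 numbered 5864 to 7534 per library, and the median correlation of a library with the others was 0.982 to 0.989 across genes. Dopamine neuron markers were abundant in all 12, with Th, the enzyme that makes L-DOPA, at 194 to 691 FPKM in cocaine libraries and 135 to 620.5 FPKM in saline libraries. Of markers of neighbouring tissue, the pituitary hormone genes Gh and Prl were listed at 0 in 8 and 9 libraries, and Dbh, the noradrenaline enzyme, in 9. Genes of hypothalamus and mammillary body were present, 15 being listed and 10 tested. The 15 summed to 68.6 to 1053 FPKM in cocaine libraries and to 66.6 to 702 FPKM in saline libraries. The read depth behind the values is unknown.

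Short transcripts were on the whole higher and long ones lower in the cocaine libraries. When genes were split into 10 equal groups by transcript length, the median difference (cocaine minus saline, log2(FPKM + 1)) was 0.07 in the shortest group and -0.04 in the longest. The same contrast taken within each library, the deviation of the shortest group minus that of the longest, ran from 0.01 to 0.08 in the 6 cocaine libraries and from -0.11 to 0.02 in the 6 saline libraries. Of the saline libraries, library 2 was above 0 and exceeded the lowest cocaine library, and the other 5 were below 0. Whether RNA quality or library preparation moved with the groups cannot be read from the files, and its part in any gene's difference was not tested.

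**Figure D1:**
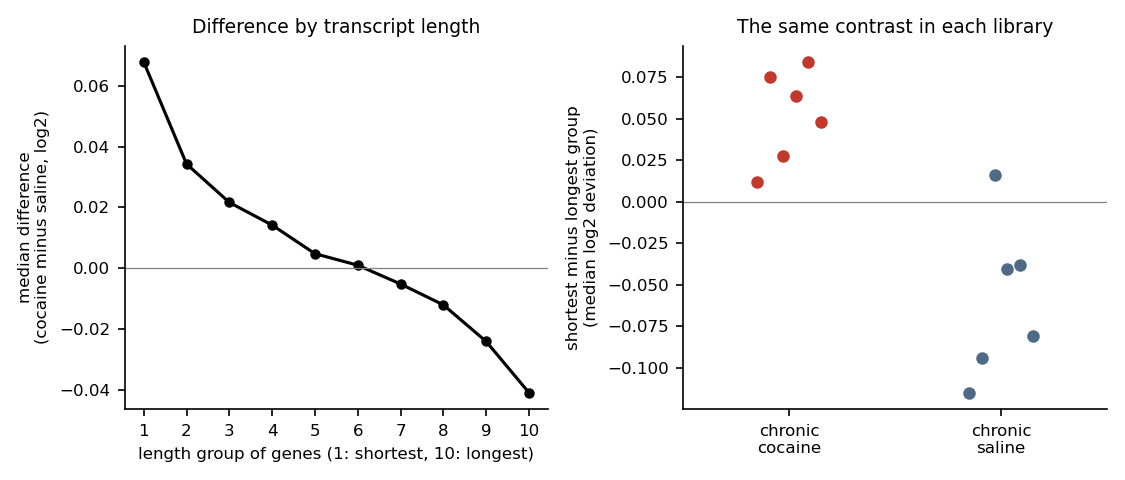
Left, median difference between chronic cocaine and saline (log2(FPKM + 1), y axis) in 10 equal groups of the tested genes by transcript length (x axis). Right, the shortest minus the longest group as a median log2 deviation in each library, 6 cocaine and 6 saline points, of which the cocaine points span 0.01 to 0.08 and the saline points -0.11 to 0.02.

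No gene passed limma's adjusted p of 0.05 over the 13190 genes (0% called), and the smallest adjusted p was 0.106, for Arrdc2. At an unadjusted p under 0.05, 548 genes were higher in cocaine libraries (4.15%) and 426 lower (3.23%), where 659.5 in all would be reached by chance on average. How far chance could move that number depends on how genes vary together, which was not estimated. Quantile normalization gave 383 higher and 398 lower (2.9% and 3.02%), and centring each library within bins of transcript length gave 297 higher and 387 lower (2.25% and 2.93%), so the excess of higher genes did not hold under either. With a difference of at least 1.3-fold as well, 18 genes were higher (0.136%) and 14 lower (0.106%). All 6 cocaine libraries lay above all 6 saline libraries in 45 genes (0.341%) and below them in 23 (0.174%). Differences were above 0 in 51.3% and below 0 in 48.7% of all genes, with a median of 0.0024. Members of gene lists are counted below at the unadjusted limit against these shares of all genes, and none of the genes named passed the adjusted threshold. The lists were chosen with earlier results of these data known, so the counts describe their members and do not test the lists. Each difference below is given as cocaine minus saline, in log2(FPKM + 1) and with its standard error, and on this scale low values give differences that are too small.

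Genes known to be induced by glucocorticoids were higher in cocaine libraries. Of 36 listed genes 35 were tested, all 35 differences were above 0, against 51.3% of all genes, and their median was 0.18. At the unadjusted limit 18 of the 35 were higher and 0 lower, against 4.15% and 3.23% of all genes. Of the 35, 1 averaged under 1 FPKM in 1 of the groups, and without it 18 of 34 were higher, with a median of 0.19. The mean level of the 35 genes (log2(FPKM + 1)) ran from 4.08 to 4.27 in cocaine libraries and from 3.86 to 4.01 in saline libraries, so that the groups did not overlap. Because the list was chosen with earlier results of these data known, neither the counts nor this separation is an independent test. Cocaine libraries 2 and 3 had the highest levels, 4.27 both, and saline libraries 0 and 1 lay nearest to the cocaine group, at 4.01 and 3.98. After centring by transcript length 17 of the 35 were higher and 0 lower, with a median of 0.18, against 2.25% of all genes higher.

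Sgk1 had 110 FPKM in its lowest, 136 in its median and 159 in its highest cocaine library, against 62.0, 85.8 and 102 in saline libraries. All 6 cocaine libraries were above all 6 saline libraries, with cocaine library 3 highest and saline library 5 lowest. The difference was 0.68 ± 0.12, with a limma adjusted p of 0.216. Arrdc2, of the arrestin-domain family that directs membrane proteins to degradation, had 15.1, 16.2 and 19.2 FPKM in cocaine libraries, against 9.58, 11.1 and 13.3 in saline libraries. Again the groups did not overlap, and cocaine library 3 stood above the other 5 cocaine libraries. Its difference was 0.50 ± 0.07.

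Ddit4, which encodes REDD1, an inhibitor of mTOR complex 1, had 40.6, 51.2 and 56.4 FPKM in cocaine libraries, against 35.9, 38.2 and 42.3 in saline libraries. Only cocaine library 0 lay within the saline range, and without it the difference was 0.43 and the limma adjusted p 0.0174, against 0.37 ± 0.07 and 0.216 with all libraries. Of the alternatives tried, Arrdc2 passed only without saline library 0, its highest saline library, at a limma adjusted p of 0.0368, and Sgk1 only when all 8 groups of the series shared 1 estimate of spread, at 0.0240. Plin4, a coat protein of lipid droplets, had 1.71, 2.17 and 3.28 FPKM in cocaine libraries, against 0.699, 1.098 and 1.54 in saline libraries. Its groups did not overlap, and its difference was 0.64 ± 0.13, from levels near the filter on low values.

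Cdkn1a, the cell cycle inhibitor p21, had 7.30, 8.11 and 13.2 FPKM in cocaine libraries, against 4.67, 5.80 and 6.89 in saline libraries. The ranges were apart, cocaine library 3 again being highest, and the difference was 0.57 ± 0.13. Tsc22d3 encodes GILZ, an anti-inflammatory protein whose gene is a classical receptor target, and it had 88.4, 99.3 and 111 FPKM in cocaine libraries, against 73.0, 81.9 and 89.0 in saline libraries. The cocaine libraries were all above the saline median, with an overlap at the edge of the ranges, and the difference was 0.27 ± 0.07. Fkbp5, a co-chaperone that lowers the affinity of the receptor for hormone, had 7.39, 8.20 and 10.2 FPKM in cocaine libraries, against 6.52, 7.42 and 7.96 in saline libraries. Its ranges overlapped more, 1 cocaine library lay below the saline median, and the difference was 0.18 ± 0.07.

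Apart from Mt1 and Mt2, which are given below, the other members past the unadjusted limit were higher by 0.12 to 0.50. They were the sulfotransferase Sult1a1 (0.50 ± 0.12), the NF-kappa-B inhibitor Nfkbia (0.35 ± 0.09), the hypoxia-inducible subunit Hif3a (0.34 ± 0.12) and Pdk4, which keeps pyruvate from oxidation (0.28 ± 0.08). With them were the MAP kinase phosphatase Dusp1 (0.25 ± 0.07), the EGF receptor inhibitor Errfi1 (0.15 ± 0.05), the clock gene Per1 (0.15 ± 0.06), the transcription factor Klf15 (0.12 ± 0.05) and the glucose transporter Slc2a1 (0.12 ± 0.06). The 17 members that did not reach the limit differed by 0.02 to 0.32. Highest cocaine values did not fall to 1 library alone: of the genes with their libraries given here, cocaine library 3 was highest for Sgk1, Arrdc2, Ddit4 and Cdkn1a, and library 2 for Plin4, Mt1 and Mt2.

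Metallothionein genes were higher, of which Mt1 and Mt2 are members of the glucocorticoid-induced list and already in its counts. Mt2 had 240.0, 271 and 320 FPKM in cocaine libraries, against 186, 208 and 233 in saline libraries, without overlap (0.41 ± 0.08, limma adjusted p 0.252). Mt1 had 445, 484 and 578 FPKM in cocaine libraries, against 327, 405 and 458 in saline libraries, the lowest cocaine library lying below the highest saline one (0.33 ± 0.08). Mt3, the brain form, had 582, 620 and 707 FPKM in cocaine libraries, against 375, 515 and 586 in saline libraries (0.33 ± 0.09). For all 3 genes every cocaine library exceeded the saline median. Of the 9 metallothionein and zinc transporter genes tested, these 3 were higher and 1 was lower at the unadjusted limit, the zinc and manganese exporter gene Slc30a10, with 1.97, 3.03 and 3.51 FPKM in cocaine libraries, against 3.18, 3.59 and 4.50 in saline libraries (-0.28 ± 0.10). The remaining 5 differed by -0.11 to 0.13. Among all genes 4.15% were higher and 3.23% lower.

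Receptors of the hormone and genes of corticotropin-releasing factor did not reach the unadjusted limit, 0 of 13 in either direction. Nr3c1, the glucocorticoid receptor, had 9.38, 12.4 and 13.6 FPKM in cocaine libraries, against 12.3, 13.5 and 15.0 in saline libraries (-0.16 ± 0.08). In 5 of 6 cocaine libraries it lay below the saline median, with wide overlap. Nr3c2, the mineralocorticoid receptor, which binds corticosterone with higher affinity, had 5.20, 5.55 and 6.22 FPKM in cocaine libraries, against 4.95, 5.74 and 7.05 in saline libraries (-0.04 ± 0.06).

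**Figure D2:**
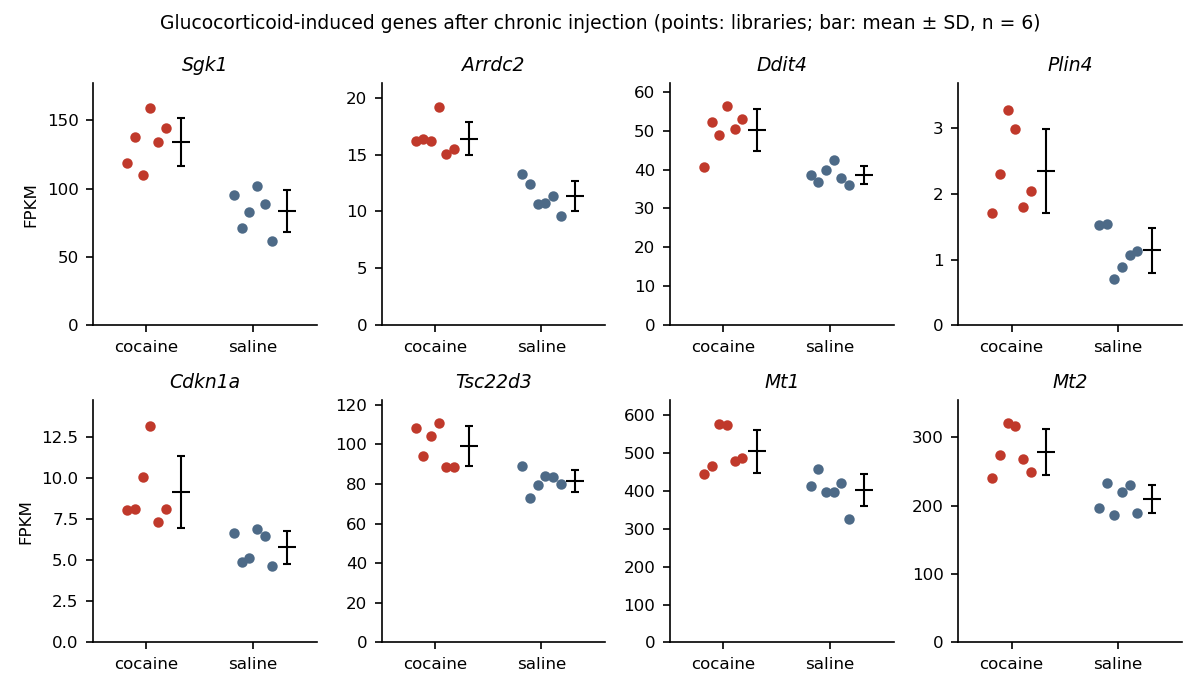
FPKM (y axis, from 0) of 8 glucocorticoid-induced genes in each chronic cocaine library and each chronic saline library (points), with the mean and SD of the 6 libraries beside them. Sgk1, Arrdc2, Plin4, Cdkn1a and Mt2 do not overlap between the groups, while Ddit4, Tsc22d3 and Mt1 overlap at the edges.

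Immediate early genes, which neurons switch on within minutes of firing or of signals through MAP kinase, leaned higher. Of 26 tested, 9 were higher and 0 lower at the unadjusted limit, against 4.15% and 3.23% of all genes. Differences were below 0 in 10 of the 26, and the median was 0.13, or 0.06 without saline library 3. The mean level of the 26 genes ran from 2.80 to 3.11 in cocaine libraries and from 2.52 to 3.14 in saline libraries. The groups thus overlapped, with saline library 2 the highest of all. Fos, the partner of Jun in AP-1, had 13.2, 16.7 and 20.9 FPKM in cocaine libraries, against 5.01, 10.2 and 19.5 in saline libraries (0.71 ± 0.26). Every cocaine library exceeded the saline median, but the saline libraries spread so widely that the highest of them lay within the cocaine range. Fosb, whose truncated product accumulates in striatum with repeated cocaine, had 1.31, 2.00 and 2.63 FPKM in cocaine libraries, against 0.487, 1.00 and 2.28 in saline libraries (0.48 ± 0.20).

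Nr4a1, an orphan nuclear receptor, had 5.82, 7.13 and 10.5 FPKM in cocaine libraries, against 4.05, 4.48 and 8.00 in saline libraries (0.51 ± 0.15). Its overlap came from saline library 2 alone, the other 5 saline libraries lying at or below 5.16 FPKM. Also higher were the AP-1 and Maf family genes Fosl2 (0.31 ± 0.12) and Maff (0.33 ± 0.11), the nuclear factor Csrnp1 (0.19 ± 0.07), the antiproliferative gene Btg2 (0.23 ± 0.09) and Ier3 (0.11 ± 0.05), and Dusp1, counted in both lists. The other 17 members differed by -0.22 to 0.37.

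Genes downstream of FoxO factors or linked to mTOR went in both directions. Of 24 tested, 5 were higher, among them Arrdc2, Ddit4, Pdk4 and Klf15 given above and the glucose-responsive arrestin-domain gene Arrdc4 (0.19 ± 0.07), and 2 were lower. These were 20.8% and 8.33% of the list, against 4.15% and 3.23% of all genes. Trib2, a pseudokinase that restrains FoxO, had 11.5, 14.0 and 15.3 FPKM in cocaine libraries, against 15.2, 16.1 and 16.9 in saline libraries (-0.22 ± 0.06). Only cocaine library 5 reached the saline range, just above saline library 3. Ddit4l, the paralog of Ddit4 that also inhibits mTOR, had 1.00, 1.16 and 2.06 FPKM in cocaine libraries, against 1.54, 1.83 and 2.02 in saline libraries (-0.32 ± 0.09). Here cocaine library 0 stood above all other libraries, and the other 5 cocaine libraries lay below every saline library. Of 19 clock genes, Ciart (0.16 ± 0.07) and Per1 were higher and Nr1d1, the repressor REV-ERB-alpha, was lower, with 29.7, 33.4 and 36.3 FPKM in cocaine libraries, against 31.95, 38.9 and 45.2 in saline libraries (-0.22 ± 0.07). These clock genes were 10.5% higher and 5.26% lower of the list, against 4.15% and 3.23% of all genes. The time of day of collection was not in the labels.

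Nuclear genes for the respiratory chain were higher in cocaine libraries by small amounts. Of 37 genes of complex I, the entry point of electrons from NADH, 19 were higher at the unadjusted limit and 0 lower (median 0.14). Complexes II and III had 6 of 14 higher (median 0.12), complex IV, which reduces oxygen, 7 of 11 (median 0.20) and complex V, the ATP synthase, 6 of 17 (median 0.13), with 0 lower in each, against 4.15% higher among all genes. The median of complex V was 0.08 without saline library 1. After centring by transcript length the counts were 8 of 37, 3 of 14, 1 of 11 and 4 of 17, with medians of 0.08, 0.06, 0.12 and 0.07, against 2.25% of all genes. After quantile normalization they were 7 of 37, 2 of 14, 2 of 11 and 3 of 17, against 2.9% of all genes.

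Uqcr11, the smallest subunit of complex III, had 297.5, 329 and 364 FPKM in cocaine libraries, against 244, 272 and 280.5 in saline libraries, without overlap (0.29 ± 0.05, limma adjusted p 0.216). Cox7b, of complex IV, had 175, 206 and 213 FPKM in cocaine libraries, against 141, 165 and 174 in saline libraries, and the lowest cocaine library lay just above the highest saline one (0.30 ± 0.06). Ndufa7, of complex I, had 151, 157 and 165 FPKM in cocaine libraries, against 132, 134 and 149 in saline libraries (0.21 ± 0.04). In this gene saline library 2 stood apart from the other 5 saline libraries, near the cocaine range. Uqcr10 (0.21 ± 0.05) and the ATP synthase gene Atp5j2 (0.21 ± 0.05) also did not overlap between groups, while Ndufb7 (0.24 ± 0.06), Cox5b (0.23 ± 0.06) and Atp5g1 (0.23 ± 0.07) did. The mean level of the 11 complex IV genes was 8.82 to 8.98 in cocaine libraries and 8.53 to 8.79 in saline libraries, so that the groups were apart but close. The levels of the other complexes overlapped between groups. Complex I had 7.34 to 7.48 in cocaine libraries and 7.14 to 7.37 in saline libraries. Complexes II and III had 7.59 to 7.72 and 7.42 to 7.60, and complex V 8.52 to 8.66 and 8.23 to 8.59.

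Ribosomal and proteasome genes followed the same direction. Of 78 cytosolic ribosomal protein genes 21 were higher and 0 lower (median 0.09), of 74 mitochondrial ones 19 and 0 (median 0.08), and of 31 proteasome genes 6 and 0 (median 0.08). Among all genes 4.15% were higher. Rpl41 had 811, 851 and 957 FPKM in cocaine libraries, against 722, 738 and 803 in saline libraries, just without overlap (0.21 ± 0.05). The groups of Fau (0.18 ± 0.04), Rpl37 (0.23 ± 0.06) and Rps26 (0.19 ± 0.05) overlapped. Mrpl11 had 10.7, 10.9 and 11.7 FPKM in cocaine libraries, against 9.95, 10.2 and 10.5 in saline libraries, a small separation (0.11 ± 0.03). Mrpl52 (0.24 ± 0.06) and the proteasome subunit Psmb6 (0.15 ± 0.05) overlapped. With centring by transcript length 7 of 78, 9 of 74 and 0 of 31 were higher, against 2.25% of all genes, with medians of 0.04, 0.04 and 0.05. With quantile normalization 4 of 78, 9 of 74 and 1 of 31 were higher, against 2.9% of all genes. The proteasome counts in both fits, and the cytosolic ribosomal count after quantile normalization, were not clearly above these shares. Reads of ribosomal protein genes can be shared with their many pseudogenes.

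Timm13 and Romo1 stand on none of the lists and were named after their values were seen. Timm13, an import chaperone, had 47.6, 48.4 and 49.2 FPKM in cocaine libraries, against 40.5, 43.6 and 45.5 in saline libraries, without overlap (0.16 ± 0.03). Romo1, an inner membrane protein tied to reactive oxygen, had 127, 152 and 160.4 FPKM in cocaine libraries, against 109, 120.3 and 130 in saline libraries (0.31 ± 0.06). In Romo1 the lowest cocaine library lay within the saline range.

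**Figure D3:**
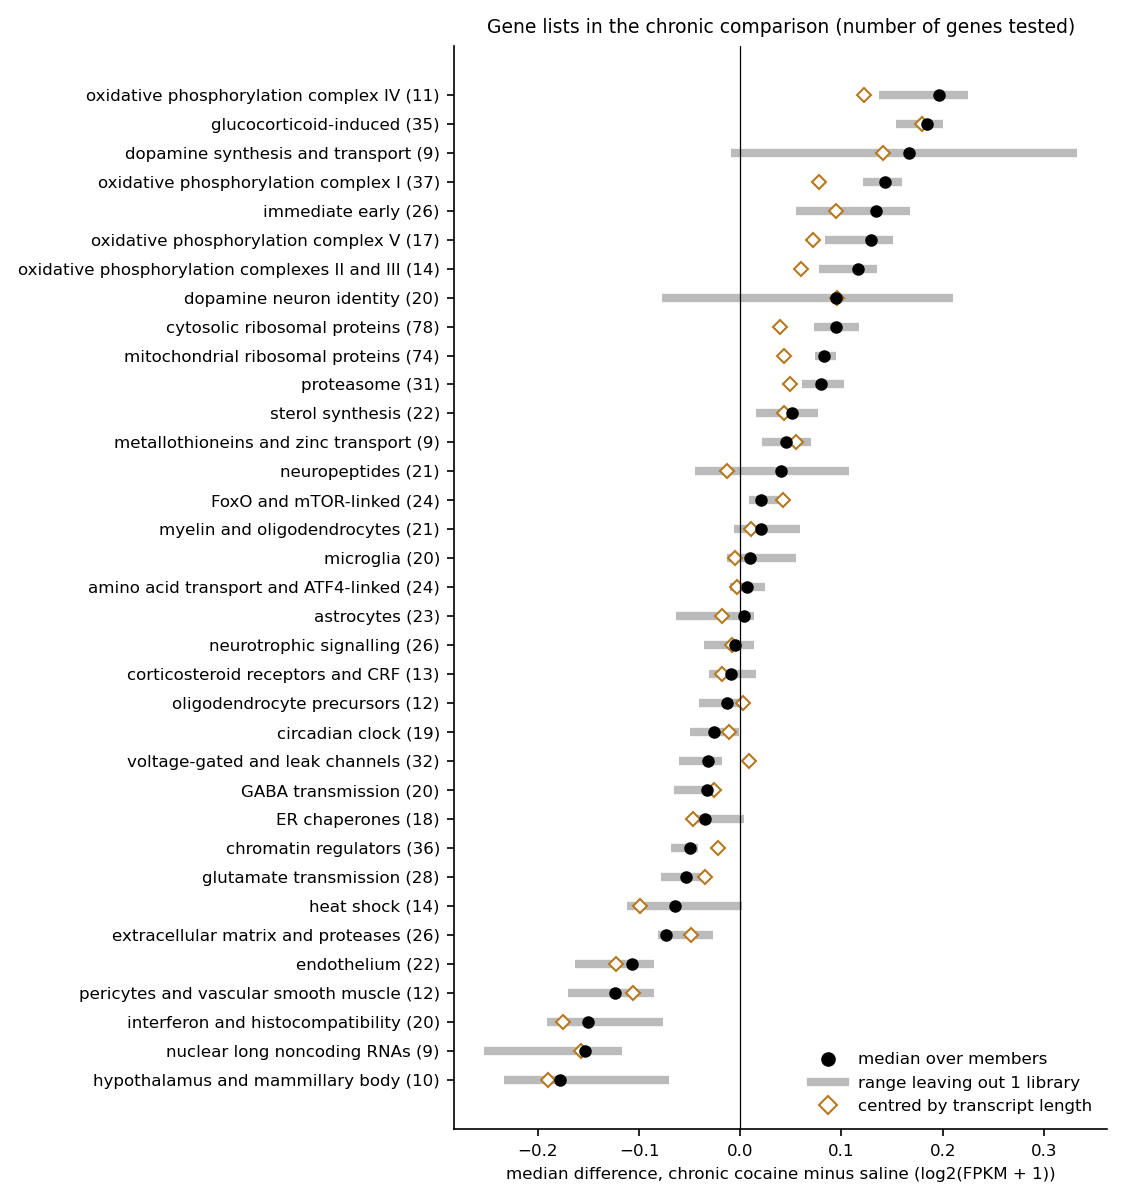
Median difference between chronic cocaine and saline (x axis, log2(FPKM + 1)) over the tested members of each gene list (y axis, number of genes in brackets). Black points are the medians, grey bars their range when 1 library is left out, and open diamonds the median after centring by transcript length, which brings the cytosolic ribosomal median to 0.04 while the glucocorticoid-induced median stays at 0.18.

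Genes of vessels were in part lower in cocaine libraries, while 3 transporters and receptors of the blood-brain barrier were higher. Of 22 endothelial markers 7 were lower and 3 higher at the unadjusted limit (median -0.11), and of 12 tested genes of pericytes and smooth muscle 2 were lower and 0 higher (median -0.12, all 12 differences below 0, against 48.7% of all genes). At that limit 3.23% of all genes were lower and 4.15% higher. The endothelial median was -0.16 without cocaine library 0. Cldn5, the tight junction protein, had 20.1, 22.2 and 24.4 FPKM in cocaine libraries, against 24.4, 26.7 and 36.1 in saline libraries, the groups meeting but not overlapping (-0.33 ± 0.08, limma adjusted p 0.429). Tek, the receptor of angiopoietins, had 3.02, 3.54 and 4.01 FPKM in cocaine libraries, against 3.89, 4.09 and 4.56 in saline libraries (-0.19 ± 0.06). In bulk tissue, fewer cells of a type and less RNA per cell cannot be told apart.

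Lower as well were the endothelial cadherin Cdh5 (-0.20 ± 0.07), the VEGF receptor Kdr (-0.20 ± 0.08), Tie1 (-0.19 ± 0.07) and the transcription factor Foxf2 (-0.22 ± 0.08), each with overlapping groups. Rgs5 (-0.26 ± 0.10) and Cald1 (-0.12 ± 0.06) were the 2 of pericytes and smooth muscle. On the higher side, Mfsd2a, the carrier of omega-3 lipids, had 13.4, 16.4 and 18.2 FPKM in cocaine libraries, against 11.0, 12.9 and 15.2 in saline libraries (0.28 ± 0.09). The transferrin receptor gene Tfrc had 31.4, 35.6 and 46.3 FPKM in cocaine libraries, against 24.2, 30.5 and 34.6 in saline libraries (0.30 ± 0.10), and Slc2a1 was given with the glucocorticoid-induced genes. Every cocaine library exceeded the saline median in Mfsd2a and Tfrc. The summed FPKM of the 22 markers ran from 651 to 754 in cocaine libraries and from 677 to 737 in saline libraries, and their mean log2 level from 3.68 to 3.93 in cocaine libraries and from 3.81 to 3.96 in saline libraries.

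Astrocyte genes were divided. Of 23 tested, 5 were lower and 1 higher at the unadjusted limit, against 3.23% and 4.15% of all genes. Their median was 0.00, and their summed level was 2473 to 2833 FPKM in cocaine libraries and 2486 to 2688 FPKM in saline libraries. Fabp7, a fatty acid carrier, had 31.4, 34.6 and 43.8 FPKM in cocaine libraries, against 39.7, 52.7 and 64.3 in saline libraries (-0.50 ± 0.13). Every cocaine library lay below the saline median. Slc7a11, which exchanges cystine for glutamate, had 1.41, 2.67 and 3.71 FPKM in cocaine libraries, against 3.39, 3.72 and 4.97 in saline libraries (-0.43 ± 0.14). Aqp4, the water channel of astrocyte endfeet, had 28.8, 41.9 and 51.6 FPKM in cocaine libraries, against 38.3, 50.9 and 69.6 in saline libraries (-0.36 ± 0.15).

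The gap junction gene Gja1 (-0.17 ± 0.05) and angiotensinogen, Agt (-0.24 ± 0.10), were the remaining astrocyte genes on the lower side. S100b was higher (0.28 ± 0.13). Etnppl, an enzyme of phosphoethanolamine breakdown found in astrocytes and not on the list, had 33.0, 37.0 and 41.8 FPKM in cocaine libraries, against 26.7, 29.6 and 32.2 in saline libraries, without overlap (0.33 ± 0.06). It was named after its values were seen. Among amino acid transporters and genes of the ATF4 response, 2 of 24 were higher and 2 lower (8.33% each, against 4.15% and 3.23% of all genes). Slc38a5, a glutamine carrier, had 0.732, 1.27 and 1.65 FPKM in cocaine libraries, against 1.35, 2.16 and 2.35 in saline libraries (-0.46 ± 0.12), the other lower gene being Slc7a11. Psat1, of serine synthesis, had 86.4, 88.8 and 95.35 FPKM in cocaine libraries, against 78.1, 83.1 and 84.8 in saline libraries, without overlap (0.13 ± 0.04).

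Of 21 myelin genes 3 were higher and 0 lower, including Mal (0.17 ± 0.07) and Apod (0.23 ± 0.11), against 4.15% higher among all genes. After centring by transcript length 1 was higher, and after quantile normalization 0 were higher and 1 lower. Of 12 precursor genes 0 passed in either direction. Of 20 microglial genes, the complement gene C1qb was higher (0.11 ± 0.04) and the purine receptor P2ry13 lower (-0.16 ± 0.07). Each was 5% of the list, near the 4.15% higher and 3.23% lower of all genes. Interferon and histocompatibility genes had 4 of 20 lower and 0 higher (median -0.15, and -0.08 without saline library 2), and the other 16 ranged from -0.26 to 0.17. Of all genes 3.23% were lower. After quantile normalization 4 were lower and 1 higher, against 3.02% and 2.9% of all genes. Among them Gbp4, an interferon-induced GTPase, had 0.500, 0.768 and 1.06 FPKM in cocaine libraries, against 0.936, 1.297 and 2.01 in saline libraries (-0.41 ± 0.11). It averaged 0.761 FPKM in cocaine libraries and so passed the filter of 1 FPKM through the saline libraries, and without it 3 of 19 were lower. The others were Ifitm3 (-0.28 ± 0.10), the class I gene H2-K1 (-0.23 ± 0.09) and Gbp2 (-0.28 ± 0.12), each with overlapping groups.

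Matrix genes had 4 of 26 lower and 0 higher (median -0.07, and -0.03 without saline library 3), and 2 of 26 lower after centring by transcript length. Of all genes 3.23% were lower, and 2.93% after that centring. Mmp14, a membrane-bound collagenase, had 2.36, 4.15 and 4.99 FPKM in cocaine libraries, against 4.71, 5.17 and 6.77 in saline libraries (-0.40 ± 0.12). Only cocaine library 0 reached the saline range. The collagens Col1a1 (-0.29 ± 0.11) and Col4a1 (-0.16 ± 0.06) were lower by less.

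Chromatin regulators had 8 of 36 lower and 0 higher (median -0.05), and 4 of 36 lower after centring by transcript length. Of all genes 3.23% were lower, and 2.93% after that centring. Jarid2, a subunit of the repressive complex PRC2, had 5.78, 6.29 and 6.94 FPKM in cocaine libraries, against 6.90, 7.44 and 7.72 in saline libraries (-0.18 ± 0.05). The ranges met at their edges. The histone methyltransferases Kmt2a (-0.18 ± 0.05), Kmt2d (-0.24 ± 0.09) and Setdb1 (-0.12 ± 0.05) and the DNA methyltransferase Dnmt3a (-0.13 ± 0.05) were also lower. Of 9 tested genes listed as long noncoding RNAs, 4 were lower and 1 higher, against 3.23% and 4.15% of all genes. Snhg11, on that list, is typed as protein coding in GENCODE M21. Neat1, the scaffold of paraspeckles, had 33.2, 39.6 and 53.9 FPKM in cocaine libraries, against 46.6, 54.4 and 67.1 in saline libraries (-0.39 ± 0.13), with every cocaine library below the saline median. Snhg11 (-0.34 ± 0.10), Meg3 (-0.38 ± 0.15) and Miat (-0.26 ± 0.10) were lower, Snhg1, which hosts small nucleolar RNAs, was higher (0.26 ± 0.09), and Ipw, an imprinted transcript not on the list, was lower (-0.48 ± 0.17).

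Genes that mark the hypothalamus and mammillary body, which border the region, had 3 of 10 lower and 0 higher (median -0.18, and -0.07 without saline library 1), and the other 7 ranged from -0.24 to 0.67. After quantile normalization 2 of 10 were lower. Of all genes 3.23% were lower, and 3.02% after quantile normalization. Foxb1, a transcription factor of the mammillary body, had 0.544, 0.938 and 1.36 FPKM in cocaine libraries, against 1.07, 1.83 and 2.34 in saline libraries (-0.46 ± 0.15). It averaged 0.960 FPKM in cocaine libraries and passed the filter through the saline libraries, and without it 2 of 9 were lower. Igsf1, a membrane glycoprotein of hypothalamus and pituitary, had 9.47, 14.6 and 19.9 FPKM in cocaine libraries, against 17.1, 21.3 and 26.6 in saline libraries (-0.51 ± 0.16). Lhx5 was lower by less (-0.18 ± 0.08). Every cocaine library lay below the saline median in all 3 genes. The summed FPKM of all 15 listed genes, tested or not, had a median of 234 in cocaine libraries and 185 in saline libraries. Cartpt, a highly variable gene among them, averaged 352 FPKM (SD 394) in cocaine libraries and 242 FPKM (SD 255) in saline libraries. The mean log2 level of the 10 tested genes was 2.46 to 3.14 in cocaine libraries and 2.60 to 3.31 in saline libraries. Avp and Oxt were listed at 0 in 8 and 7 of the 12 libraries. The part of dissection in these differences was not tested.

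**Figure D4:**
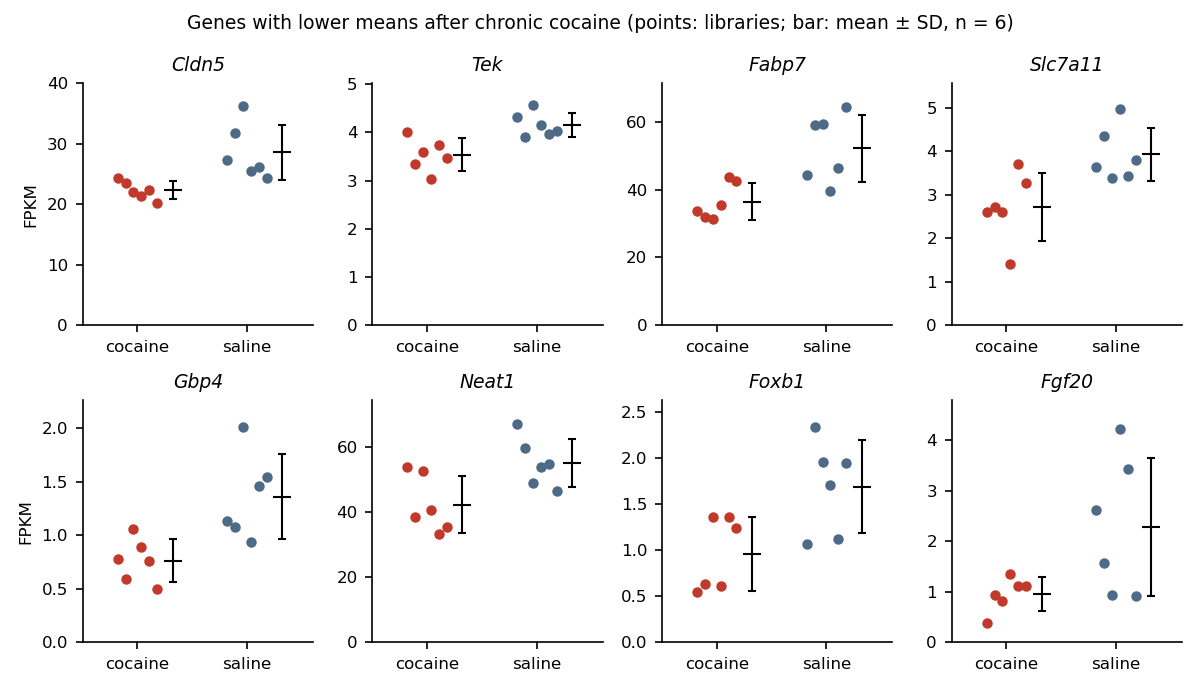
FPKM (y axis, from 0) of 8 genes with lower means after chronic cocaine, in each cocaine library and each saline library (points), with the mean and SD of the 6 libraries beside them. Cldn5 is the gene whose groups do not overlap, and in Fgf20 the cocaine libraries lie between 0.388 and 1.35 FPKM while the saline libraries spread from 0.929 to 4.24 FPKM.

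Dopamine neuron genes varied far more between libraries than between groups. Th had a median of 416 FPKM in cocaine libraries and 372 FPKM in saline libraries (0.25 ± 0.42). Slc6a3, the dopamine transporter that cocaine blocks, had 142, 373 and 595.5 FPKM in cocaine libraries, against 133, 289.5 and 570.2 in saline libraries (0.19 ± 0.42). Slc18a2, the vesicular monoamine transporter, had 66.1, 160.1 and 237 FPKM in cocaine libraries, against 54.1, 125 and 237 in saline libraries (0.19 ± 0.40). Within either group the highest library had over 3 times the lowest in all 3 genes. Given these standard errors, differences of the size seen in Sgk1 could not have been told from the spread in these genes. The autoreceptor Drd2 (0.10 ± 0.29) and the nicotinic subunit Chrna6 (0.17 ± 0.45) spread likewise. Of 9 genes of dopamine synthesis and transport, 6 of receptors and turnover and 20 of neuron identity, 0 passed the unadjusted limit in either direction, and the median of the first list moved between -0.01 and 0.33 when 1 library was left out.

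Fgf20, a fibroblast growth factor that supports dopamine neurons in culture, had 0.388, 1.02 and 1.35 FPKM in cocaine libraries, against 0.929, 2.10 and 4.24 in saline libraries (-0.66 ± 0.25, limma adjusted p 0.617). All 6 cocaine libraries were below the saline median and the saline libraries spread widely. Fgf20 averaged 0.955 FPKM in cocaine libraries and passed the filter through the saline libraries. Other growth factor genes lower at the unadjusted limit were the neurotrophin-3 receptor Ntrk3 (-0.15 ± 0.05) and Vegfa (-0.22 ± 0.09). Of 26 tested, 4 were lower and 0 higher, or 3 of 25 lower without Fgf20, against 3.23% of all genes lower. Of 8 opioid genes 1 was lower (12.5%, against 3.23% of all genes). It was the mu receptor Oprm1, with 2.19, 2.56 and 2.96 FPKM in cocaine libraries, against 2.69, 3.14 and 3.34 in saline libraries (-0.20 ± 0.07). Of 20 GABA and 28 glutamate genes, the GABA-B subunit Gabbr1 (-0.10 ± 0.04) and the metabotropic receptor Grm5 (-0.19 ± 0.09) were lower and 0 higher. These were 5% and 3.57% of their lists, near the 3.23% of all genes that were lower. Neuropeptide B, Npb, had 2.57, 4.16 and 5.71 FPKM in cocaine libraries, against 2.51, 2.77 and 3.42 in saline libraries (0.39 ± 0.12). It was the 1 of 21 neuropeptide genes past the limit (4.76%), near the 4.15% of all genes that were higher.

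Among genes past both the unadjusted limit and 1.3-fold but on no list above, Arl4d, a small GTPase of the ARF family, had 21.4, 26.6 and 30.2 FPKM in cocaine libraries, against 13.2, 19.8 and 23.6 in saline libraries (0.47 ± 0.13). Smim3, a small membrane protein, had 3.84, 5.84 and 7.78 FPKM in cocaine libraries, against 3.56, 3.80 and 4.38 in saline libraries (0.48 ± 0.11). Both had every cocaine library above the saline median. Cox7a1, the muscle form of a complex IV subunit (0.40 ± 0.15), the secreted phospholipase Pla2g3 (0.39 ± 0.13), Gm765 (0.55 ± 0.22) and 0610040B10Rik (0.39 ± 0.11) were also higher. On the lower side Gm3002 had 2.05, 2.44 and 2.71 FPKM in cocaine libraries, against 2.92, 3.37 and 4.53 in saline libraries, without overlap (-0.40 ± 0.08). The pseudogene Pisd-ps1 was lower (-0.41 ± 0.09), and its reads can be shared with its parent gene. The small RNA loci Snora70 (-2.09 ± 0.68) and Mir1291 (-1.81 ± 0.76) lay at 0 FPKM in at least 1 cocaine library, and short loci like these are poorly measured by libraries of this kind.

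The effect of cocaine after chronic injection was set against those in 2 other paradigms in the series, each with its own saline group. The acute paradigm was injection of cocaine (5 libraries) or saline (6 libraries) in the home cage. By label it differs from the chronic one in repetition, but the labels do not give the time of collection. A difference of effects therefore cannot be assigned to repetition. The conditioning paradigm had 6 cocaine and 6 saline libraries, and the kind of conditioning is not given in the labels. In 1 limma fit of all 8 groups, 0 of 13186 genes passed an adjusted p of 0.05 for either difference of effects (0% called). At an unadjusted p under 0.05, 42 genes had a higher chronic than acute effect (0.319%) and 104 a lower one (0.789%), and 190 a higher chronic than conditioning effect (1.44%) and 97 a lower one (0.736%). In each comparison fewer genes passed than chance alone gives on average at this limit. The fit shared 1 estimate of spread over all 8 groups. With only the 4 groups of the 2 paradigms, 196 higher and 299 lower passed for chronic minus acute. For chronic minus conditioning these were 426 and 338. Again 0 genes passed adjustment, the smallest limma adjusted p being 0.999 and 0.158.

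Sgk1 was in the higher group of both differences. It had 121 ± 21.8 FPKM after acute cocaine (SD, n = 5), against 114 ± 22.3 FPKM after acute saline (n = 6). After chronic injection it had 134 ± 17.5 FPKM with cocaine and 83.7 ± 15.1 FPKM with saline, and in conditioning 166 ± 15.0 FPKM with cocaine and 150 ± 17.98 FPKM with saline (n = 6 each). The chronic saline group was thus the lowest of these 6 groups. The chronic effect exceeded the acute one by 0.59 ± 0.19 and the conditioning one by 0.53 ± 0.18, each with a limma adjusted p of 1. Self-administration libraries had 188 ± 26.3 FPKM with cocaine (n = 15) and 198 ± 33.6 FPKM with saline (n = 9).

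Arrdc2, Ddit4 and Plin4 had effects of 0.10, 0.05 and 0.09 in the acute paradigm, 0.50, 0.37 and 0.64 in the chronic one and 0.13, -0.07 and -0.27 in conditioning. Their chronic minus acute differences were 0.39 ± 0.26, 0.31 ± 0.20 and 0.55 ± 0.36, none past the unadjusted limit in the fit with 1 spread for all 8 groups. In the fit of the chronic groups alone, the chronic difference of Arrdc2 had a standard error of 0.07. Ddit4 (0.43 ± 0.19) and Plin4 (0.92 ± 0.35) passed the unadjusted limit for chronic minus conditioning. Mean Ddit4 was 38.6 ± 2.31 FPKM in chronic saline libraries, against 47.5 ± 3.95 FPKM in acute saline libraries and 61.6 ± 5.42 FPKM in conditioning saline libraries. Of the 35 tested glucocorticoid-induced genes, 1 had a higher chronic than acute effect and 6 a higher chronic than conditioning effect at that limit, with 0 lower in each and median differences of 0.14 and 0.21. The same chronic cocaine and saline libraries enter both differences, so the 2 counts are not independent.

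**Figure D5:**
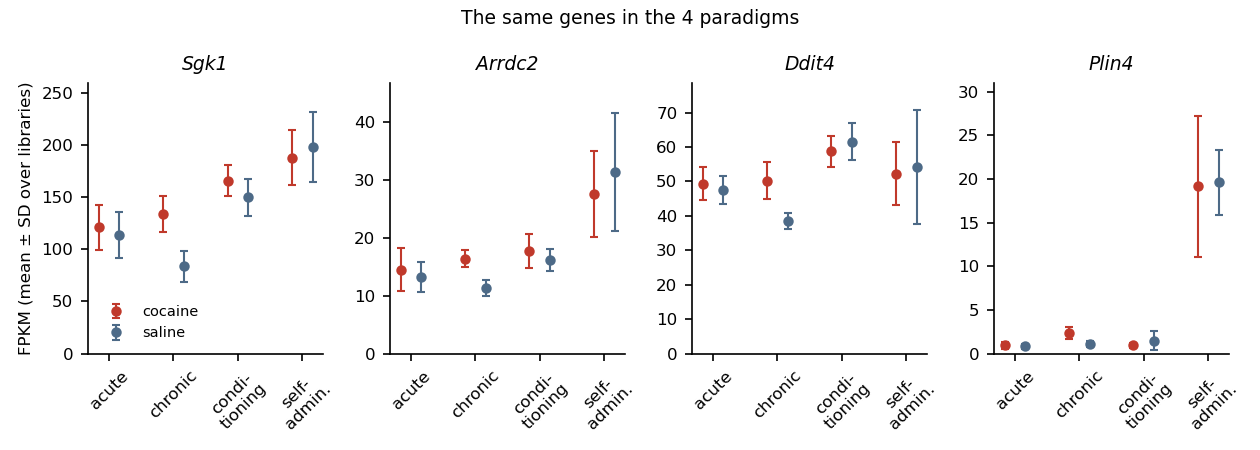
Mean FPKM with SD over libraries (y axis, from 0) of Sgk1, Arrdc2, Ddit4 and Plin4 in cocaine and saline libraries of the acute, chronic, conditioning and self-administration paradigms. The distance between cocaine and saline is widest in the chronic pair for Sgk1, where saline libraries average 83.7 FPKM, and Plin4 is far higher in both self-administration groups.

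Other lists were counted at the same unadjusted limit. Past it, 0.319% of all genes had a higher and 0.789% a lower chronic than acute effect, and 1.44% a higher chronic than conditioning effect. Of immediate early genes, 0 of 26 passed it with a higher chronic than acute effect and 5 of 26 with a higher chronic than conditioning effect. Fosb led these (0.70 ± 0.24), with effects of 0.48 in the chronic and -0.23 in the conditioning paradigm. Of cytosolic ribosomal genes 2 and 11 of 78 passed in the same 2 comparisons, and of complex I genes 0 and 1 of 37. Rpl41 had effects of 0.21 in the chronic, 0.16 in the acute and -0.11 in the conditioning paradigm. Endothelial markers had 2 of 22 with a lower and 1 with a higher chronic than acute effect (median -0.19). Fgf20 was lower with cocaine in the acute paradigm too, at 0.919 ± 0.615 FPKM against 2.35 ± 0.696 FPKM with saline, and in conditioning, at 0.832 ± 0.5257 FPKM against 2.52 ± 1.55 FPKM with saline.

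Among genes whose effect differed by at least 1.3-fold, Pet117, an assembly factor of complex IV, had the smallest unadjusted p on the higher side of both differences. It had 4.25, 7.73 and 9.28 FPKM in chronic cocaine libraries, against 0.00179, 5.07 and 8.12 in chronic saline libraries (0.73 ± 0.49). Its effect was -1.03 in the acute and -0.85 in the conditioning paradigm. Values near 0 beside values of several FPKM can be failed estimates, so these differences are given as values of the table only. Genes of this kind were also the most variable within groups. Atp6v0c-ps2, a pseudogene, had 0.00764, 0.0974 and 5.38 FPKM in cocaine libraries, against 0.0860, 16.4 and 230 in saline libraries, and the microRNA locus Mirlet7c-2 was listed at 0 in all 6 cocaine libraries and had up to 57.9 FPKM in saline libraries.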

How the data were processed

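Per the labels' protocols, RNA was extracted with RNeasy columns and sequencing libraries were prepared with TruSeq reagents, with no word on strand. The authors deposited a single table of FPKM with 1 row per gene symbol. Bowtie, Cuffnorm and the build mm10 are named per the submitters' processing notes, while versions, scaling, annotation and filters were not given in the sources used here. FPKM divides by transcript length and library total, so abundant transcripts, fragment length or GC bias can move many genes. Whole reads could not be recovered: over 11 pairs of libraries the most frequent ratio held 0.747% to 4.16% of the low genes. No count test or counting interval was therefore used. Columns were mapped to groups by name, and their numbers, which count from 0, name libraries only.

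On the scale log2(FPKM + 1), every gene averaging 1 FPKM or more in the 12 libraries was tested with limma 3.58.1 (R 4.3.3), using moderated two-sided tests with the trend and robust settings and Benjamini-Hochberg adjustment over all genes. Only the 2 chronic groups entered that fit. Differences between paradigms came from 1 fit of all 8 groups. The procedure was tested on simulated data. Alternatives were a pseudocount of 0.1, no filter, a filter of 5 FPKM, quantile normalization, median-ratio scaling, centring within 20 bins of transcript length, quality weights, another empirical Bayes setting, all 8 groups in the fit, and leaving out each library. Lengths are those of the longest GENCODE M21 transcript of a symbol (GRCm38, 96.4% of tested genes matched). Promoter windows are from RefSeq. The 43 gene lists, the genes and the groups described were chosen with earlier results of these data known. Named genes were the 15 of smallest p per direction past unadjusted p under 0.05 and 1.3-fold (14 on the lower side), 2 to 8 leading members of each list described, Th, Slc6a3, Slc18a2, Drd2 and Fgf20, up to 5 per difference between paradigms, and the 8 most variable genes of at least 10 FPKM, of which the text gives a part.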

Additional observations from a re-analysis of the deposited data

Results flagged for a closer look

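In 17 of 278 groups of 4 to 10 libraries examined, 1 library stood apart from the rest of its group by the gap test of Dixon, where chance gives about 1 in 20. Among chronic cocaine libraries, Arrdc2 had 19.2 FPKM in library 3 and 15.1 to 16.3 FPKM in the others. Ddit4l had 2.06 FPKM in library 0 and 1.00 to 1.21 FPKM in the others. In library 2, Snhg11 had 123 FPKM (others 89.5 to 99.2) and Mir1291 had 14.6 FPKM (others 0 to 4.23).

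Among chronic saline libraries, library 2 was high for Nr4a1 at 8.00 FPKM (others 4.05 to 5.16), Ndufa7 at 149 FPKM (others 132 to 137), Fau at 473 FPKM (others 415 to 433) and Kdr at 2.66 FPKM (others 2.04 to 2.24). The mean log2 level of the endothelial markers was also high in that library, at 3.96 (others 3.81 to 3.86). Library 1 had Klf15 at 17.9 FPKM (others 14.4 to 15.3) and a low complex IV level of 8.53 (others 8.72 to 8.79). Library 3 had P2ry13 at 4.01 FPKM (others 3.00 to 3.29). Library 4 had Atp6v0c-ps2 at 230 FPKM (others up to 40.1). Library 5 had Mirlet7c-2 at 57.9 FPKM (others up to 18.3) and a heat shock level of 6.45 (others 5.47 to 5.73).

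In the other paradigms Plin4 had 1.64 FPKM in acute cocaine library 3 (others 0.724 to 0.8289) and 1.47 FPKM in conditioning cocaine library 5 (others 0.724 to 0.973).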

How the results depend on the processing

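No paired analysis was possible because the table's columns are numbered from 0, which the replicate numbers of the labels do not match, so the planned replicate block was not run. Over all alternatives, gene differences kept their direction and side of the threshold 2824 times, turned round 13 times and came past the threshold 3 times (Sgk1, Ddit4 and Arrdc2, as given above). List medians near 0 could cross it: that of astrocytes ran from -0.06 to 0.01 with 1 library left out. With a pseudocount of 0.1, 38 genes were higher and 46 lower at the unadjusted limit with 1.3-fold. Without a filter, 665 were lower at the unadjusted limit and 22 with the fold. At a mean of at least 5 FPKM these were 248 and 7, with 9 higher with the fold. Quantile normalization brought the median of complex I to 0.0779 and of cytosolic ribosomal genes to 0.0242, and centring by length gave 297 higher genes and a complex I median of 0.0777. With all 8 groups in the fit 1 gene passed adjustment, 185 were higher and 140 lower. Leaving out 1 library gave 0 to 1 gene past adjustment, 407 to 619 higher, 280 to 490 lower, and with the fold 17 to 25 higher and 12 to 22 lower; 280 came without cocaine library 3 and 22 without cocaine library 4 or saline library 3. Fits of only 4 groups gave 196 higher and 299 lower for chronic minus acute, and 426 and 338 for chronic minus conditioning. Leaving out 1 chronic library gave 26 (without cocaine library 3) to 82 (without saline library 3) higher and 66 (without cocaine library 3) to 126 lower for the first, and 135 to 233 higher and 65 to 155 (without cocaine library 0) lower for the second. Dopamine neuron genes turned round: with quality weights Th was -0.0542, Slc6a3 -0.12, Slc18a2 -0.11, Drd2 -0.14 and Chrna6 -0.13. With 1 library left out, Th ran from -0.00872 to 0.453, Slc6a3 from -0.0356 to 0.428, Slc18a2 from -0.0497 to 0.401 and Chrna6 from -0.08948 to 0.428, each lowest without saline library 2. Drd2 ran from -0.04245 (without cocaine library 3) to 0.2465 and was also below 0 without saline library 2 or 5, and Nr3c2 ran from -0.07515 to 0.01212 (without saline library 5). The cause was not tested.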
